A study of Mus musculus with 6 samples.

Results

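The T cell receptor variable segments are the genes that encode the antigen-facing part of the receptor chains, and 24 of them were transcribed at 10 or more reads in sorted mouse group 2 innate lymphoid cells (ILC2). The members are all genes with a symbol beginning Trav, Trbv, Trdv, Trgv or Tcrg-V whose raw counts summed over the 6 libraries reached 10. They are 24 of the 65 variable segments in the deposited tables and of the 37991 genes in all. The rule used the summed count and no contrast between groups. Just inside the limit lay Tcrg-V3 with 10 counts and Trav18 with 12, and just outside it lay Trav6n-5 and Trbv13-1 with 9 counts each. Of the other 41 segments, 21 had 1 to 9 counts and 20 had none.

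ILC2 are lymphocytes without an antigen receptor that make type 2 cytokines on exposure to alarmins. They were sorted as Lin-Thy1+ST2+ cells from mice homozygous for an Id1 transgene driven by the proximal lck promoter, made on FVB/N and then backcrossed onto C57BL/J over 10 or more generations. All 3 groups carry the transgene, and there is no group without it. Id1 is an inhibitor of E protein transcription factors, and the labels describe the T cell development of these mice as completely blocked. The groups are thymus cells, fresh cells of the mesenteric lymph nodes (MLN) and MLN cells kept for 1 week in medium holding IL-33, IL-25 and IL-7, each at 10 ng/ml, with 2 libraries per group. The labels give no age and leave unsaid if paired libraries stem from different animals or cultures; p-values thus reflect library spread, which may be technical.

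Variable segments lie in arrays upstream of diversity, joining and constant genes. RAG recombinase joins a variable segment to a D or J segment in developing T cells, and the joined gene is spliced to its constant gene. An unjoined segment can also be transcribed from its own promoter, as sterile germline RNA, and this transcription accompanies the opening of a locus. The alpha and delta arrays share a locus on mouse chromosome 14, the beta array is on chromosome 6 and the gamma array, built of several cassettes each with its own constant gene, on chromosome 13. A count per segment does not tell a joined transcript from a germline one.

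By locus the members were 5 of the 33 Trav segments in the tables, 8 of 20 Trbv, 4 of 5 Trdv and all 7 gamma segments. The annotation used for names (GENCODE M21) holds 176 such segments, of which 111 had identifiers that the tables do not list and were not analysed here. It holds 128 Trav, 35 Trbv, 6 Trdv and 7 gamma segments, so the tables cover the loci unequally and the alpha array least. All 24 members are annotated there as variable genes and 0 as pseudogenes, whereas 6 of the 65 segments in the tables are annotated as pseudogenes.

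The 3' ends of the segments that carry the results are shown because they are where joining takes place and because they show which members are near copies of each other. Each line gives the last 90 coding bases of the germline transcript in GENCODE M21, 5′ to 3′, on the strand of the gene. The capitals mark the codon of the conserved cysteine that begins the third complementarity-determining region.
Trdv4: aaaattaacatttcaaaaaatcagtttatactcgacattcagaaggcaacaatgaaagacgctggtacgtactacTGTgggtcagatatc
Trdv5: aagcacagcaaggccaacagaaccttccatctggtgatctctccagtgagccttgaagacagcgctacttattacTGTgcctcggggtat
Trdv2-1: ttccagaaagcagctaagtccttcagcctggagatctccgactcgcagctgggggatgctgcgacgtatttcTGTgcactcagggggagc
Trdv2-2: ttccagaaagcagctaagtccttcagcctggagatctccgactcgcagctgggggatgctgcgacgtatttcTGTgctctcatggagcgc
Tcrg-V1: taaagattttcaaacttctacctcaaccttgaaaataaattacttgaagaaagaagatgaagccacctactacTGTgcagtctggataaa
Tcrg-V3: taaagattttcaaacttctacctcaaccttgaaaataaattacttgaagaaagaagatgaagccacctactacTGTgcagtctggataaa
Trgv2: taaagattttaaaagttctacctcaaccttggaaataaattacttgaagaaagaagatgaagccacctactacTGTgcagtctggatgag
Tcrg-V4: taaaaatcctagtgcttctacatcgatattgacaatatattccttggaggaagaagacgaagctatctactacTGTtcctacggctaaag
Trbv13-2: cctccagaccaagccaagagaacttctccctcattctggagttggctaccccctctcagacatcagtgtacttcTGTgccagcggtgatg
Trbv13-3: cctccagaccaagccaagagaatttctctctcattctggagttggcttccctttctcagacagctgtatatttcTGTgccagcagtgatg
Trav13n-4: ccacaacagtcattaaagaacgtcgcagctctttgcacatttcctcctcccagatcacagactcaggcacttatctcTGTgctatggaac
Trav14n-3: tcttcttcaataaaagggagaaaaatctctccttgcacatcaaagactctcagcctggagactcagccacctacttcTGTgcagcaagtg

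Several of these ends are nearly the same. Tcrg-V1 and Tcrg-V3 differ at 0 of the 90 positions shown, and over their whole coding sequences they are 94.05% identical with a longest shared run of 104 bases. Tcrg-V1 and Trgv2 differ at 5 of the 90 positions and are 94.86% identical with a longest shared run of 74 bases. Trdv2-1 and Trdv2-2 differ at 4 of the 90 positions, and their longest shared run is 221 bases. Trbv13-2 and Trbv13-3 differ at 10 of the 90 positions and share at most 50 bases in a row. Trdv4 has no such copy, since its closest relative among the Trdv segments is 52.03% identical and shares at most 8 bases in a row with it. How reads that fit more than 1 copy were assigned is not given in the sources used here, so the split between Tcrg-V1, Tcrg-V3 and Trgv2, and between Trdv2-1 and Trdv2-2, is uncertain.

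Library totals lay between 35280692 and 40578264 counts, so that 3 counts in a library equal 0.0739 to 0.0905 CPM (normalised read counts, on library totals scaled by TMM factors). The ILC2 markers Gata3 and Il1rl1, the latter encoding ST2, were at 599 to 1064 CPM and at 1444 to 2342 CPM in the 6 libraries. Of the 10 ILC2 markers listed, 6 were higher and 4 lower in culture than in fresh MLN, beside 39.4% and 38.1% of all genes. The lower ones went from a mean of 2906 to 112 CPM (Il17rb), 610.5 to 146 (Rora), 2281 to 852 (Il7r) and 335 to 113 (Thy1). Trac, the only constant gene of the alpha chain and a defining marker of alpha-beta T cells, had 5 and 8 reads in thymus, 8 and 4 in fresh MLN, then 12 and 15 after culture. Ptcra, the partner of the beta chain in early thymocytes, had 0 counts in both thymus libraries. Other genes of T cells were present, among them Cd3e at 43.2 to 101.3 CPM.

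**Figure D1:**
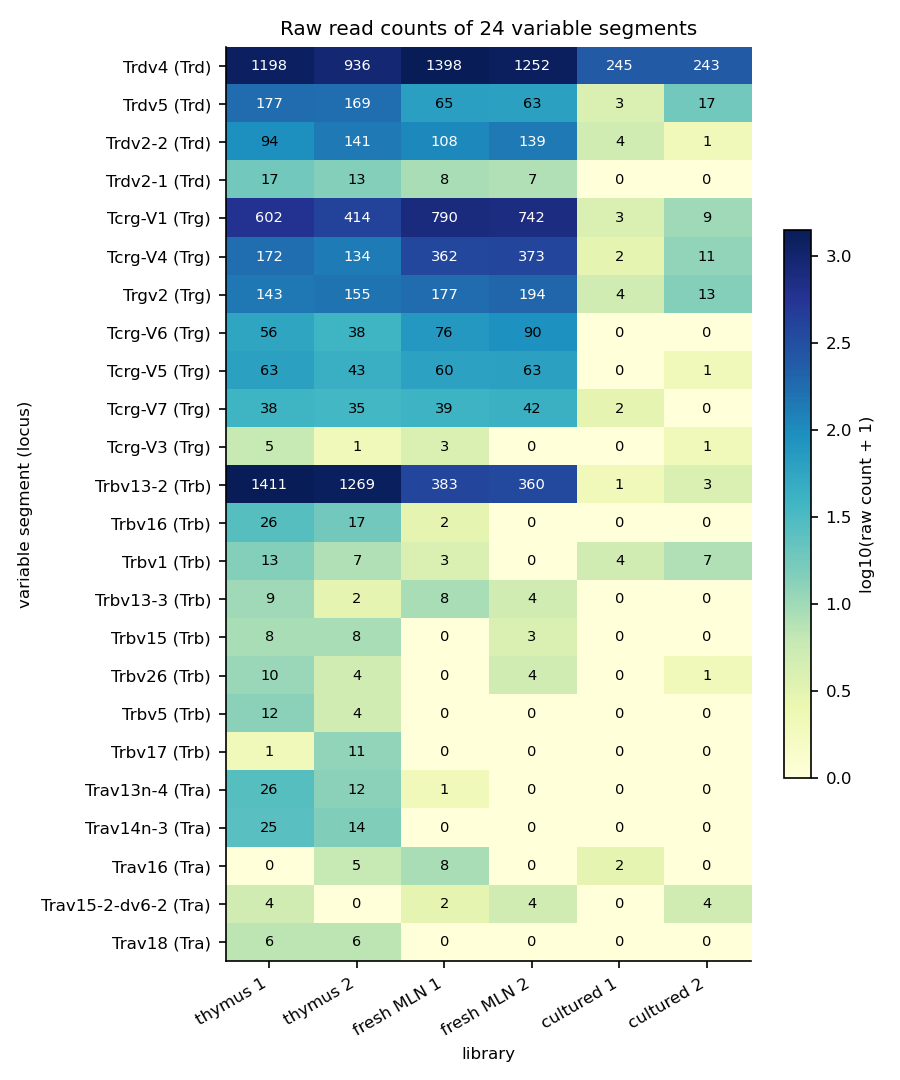
Raw read counts of the 24 variable segments (rows, grouped by locus) in the 6 libraries (columns), with colour giving log10(raw count + 1). The Trd and Trg segments were counted in all thymus and fresh MLN libraries apart from Tcrg-V3, the Trb counts lay mostly on Trbv13-2, the Trav counts did not pass 26 in a library, and Trdv4 alone kept 245 and 243 counts in cultured cells.

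Summed over the members, the variable segments were at 96.4 CPM in thymus, 89.2 CPM in fresh MLN and 8.36 CPM in cultured cells. In thymus the sum was spread over 3 loci, in fresh MLN it lay mostly on delta and gamma, and in cultured cells mostly on delta. These sums run over segments picked by their counts and carry no test. Since the tables cover the loci unequally, they do not rank the loci. The Trb sum was 36.7 and 35.2 CPM in the thymus libraries, 10.2 and 9.85 CPM in fresh MLN, then 0.151 and 0.303 CPM after culture. The Trg sum ran the other way between the organs, at 26.6 and 21.8 CPM in thymus against 38.7 and 39.9 CPM in fresh MLN, and was 0.332 and 0.965 CPM in cultured cells. The Trd sum was 36.6 and 33.5 CPM in thymus, 40.6 and 38.8 CPM in fresh MLN, then 7.60 and 7.196 CPM after culture. The Tra sum was low everywhere, at 1.503 and 0.984 CPM in thymus, 0.283 and 0.106 CPM in fresh MLN, then 0.0604 and 0.110 CPM after culture. Only 33 of the 128 annotated Trav segments could be counted. For each of Tra, Trb, Trd and Trg the thymus and fresh MLN libraries did not overlap, and for each of Trb, Trd and Trg the cultured libraries were below all fresh ones.

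**Figure D2:**
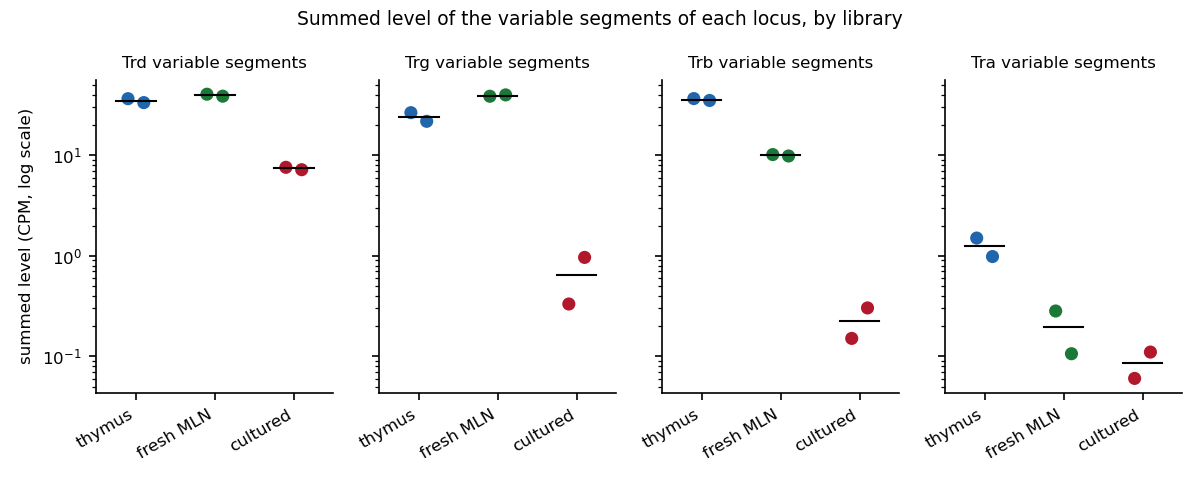
Summed level of the members of each locus in CPM (log scale, 1 panel per locus), with a point for each library and a bar for the mean of the group's 2 libraries. The Trb mean is 35.9 CPM in thymus and 10.0 CPM in fresh MLN, the Trg mean is 24.2 and 39.3 CPM, and the Trd mean in culture is 7.40 CPM. The sums do not rank the loci, which are covered unequally.

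As shares of the counts of all members, Trb held 36.2% (exact 95% binomial interval 34.7 to 37.7) and 38.5% (36.8 to 40.1) in the thymus libraries, and 11.3% (10.3 to 12.4) and 11.1% (10.1 to 12.2) in fresh MLN. Trd held 36.1% and 36.6% in thymus, 45.2% and 43.7% in fresh MLN, and 93.3% (89.7 to 96.0) and 83.9% (79.4 to 87.8) in cultured cells. The cultured shares rest on 270 and 311 counts. The intervals and the 3-count floors account for counting error alone, because no molecular identifiers are described and PCR copies are not independent molecules.

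Per kilobase of exon, which allows segments to be set beside each other, the order of levels differed between the groups. In thymus Trbv13-2 was highest at 100.8 ± 2.14 CPM per kilobase (SD, n = 2), followed by Trdv4 at 61.3 ± 7.38 and Tcrg-V1 at 34.6 ± 7.24. In fresh MLN Trdv4 led at 77.9 ± 4.26 CPM per kilobase, followed by Tcrg-V1 at 53.5 ± 1.13, Trbv13-2 at 28.5 ± 0.586 and Tcrg-V4 at 22.5 ± 1.00. In thymus, Trdv5 at 10.1 ± 0.213, Tcrg-V4 at 9.16 ± 1.12, Trgv2 at 7.79 ± 0.861 and Trdv2-2 at 7.64 ± 2.55 CPM per kilobase came next, and of these neighbours only Tcrg-V4 and Trgv2 differed by more than the larger of their SDs. In cultured cells Trdv4 stood at 15.9 ± 1.10 CPM per kilobase and the next, Trdv5, at 0.638 ± 0.611, a level whose spread overlaps those of Trgv2, Tcrg-V1 and Tcrg-V4.

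For the comparisons across groups, 14 of the 24 members passed the filter on low counts and 10 did not. The 14 include every Trdv member, every gamma member except Tcrg-V3, Trbv13-2, Trbv16, Trav13n-4 and Trav14n-3. Trbv16, Trdv2-1, Trav13n-4 and Trav14n-3 passed through their thymus counts alone, so that a lower level in the other groups was built into their being tested. The other 10 reached the filter's level in both organs, but Trdv4 alone reached it in cultured cells. Tests are edgeR quasi-likelihood tests over all 16231 genes with Benjamini-Hochberg adjustment, with a call at an adjusted p under 0.05. The 3 comparisons share libraries with each other and are not independent.

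Thymus was set against fresh MLN to see how variable segment RNA differs with the organ. Of the 10 members that reached the filter's level in both organs, 2 were higher in thymus, 4 lower and 4 not called, beside 47.3% of all genes called, 25.3% called higher and 22.0% called lower. With the 4 members that entered through thymus alone, 5 were higher, 4 lower and 5 not called of 14, a balance set in part by the filter. The higher ones were the beta segments Trbv13-2 and Trbv16, the alpha segments Trav13n-4 and Trav14n-3 and the delta segment Trdv5. The lower ones were Trdv4 and the gamma segments Tcrg-V1, Tcrg-V4 and Tcrg-V6.

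Trbv13-2, a beta segment used widely by conventional and natural killer T cells, had 1411 and 1269 reads in thymus, 383 and 360 in fresh MLN, then 1 and 3 after culture. The groups did not overlap. Its level was 3.53-fold higher in thymus than in fresh MLN (log2 fold change 1.82 ± 0.10 SE, edgeR adjusted p = 1.207e-08). It made up 94.7% and 96.0% of the reads of the Trb members in thymus and 96.7% and 97.0% in fresh MLN. Nearly all Trb member reads of both organs thus lay on this segment. Trbv13-3, its near copy, had 9 and 2 reads in thymus and 8 and 4 in fresh MLN, and the groups overlapped.

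The remaining beta segments were low and found mainly in thymus. Trbv16 had 26 and 17 reads in thymus, 2 and 0 in fresh MLN and 0 in both cultured libraries, a ratio of 21.1 between thymus and fresh MLN (exact 95% counting interval 5.49 to 179, edgeR adjusted p = 0.00111). Both of its fresh MLN counts came from replicate 1. Trbv1 had 13 and 7 reads in thymus, 3 and 0 in fresh MLN, then 4 and 7 after culture. Trbv15 had 8 and 8 reads in thymus against 0 and 3 in fresh MLN, and Trbv26 had 10 and 4 against 0 and 4. Trbv5 and Trbv17, named here after their values were seen because they complete the list, had 12 and 4 and 1 and 11 reads in thymus and 0 in every other library. All 8 beta members had a count in both thymus libraries, while 4 of 8 had one in each fresh MLN library. Over all 20 Trb segments of the tables, 14 and 16 had a count in the thymus libraries and 8 and 6 in fresh MLN. Trbv5 shares 79.35% of its exon bases with a non-coding gene on the same strand, so its counts are uncertain.

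The alpha segments that the tables list gave few reads. Trav13n-4 had 26 and 12 reads in thymus, 1 and 0 in fresh MLN and 0 in cultured cells, a ratio of 37.2 between thymus and fresh MLN (exact 95% counting interval 6.29 to 1508, edgeR adjusted p = 0.00119). Trav14n-3 had 25 and 14 reads in thymus and 0 in the other 4 libraries, which makes it at least 12.7-fold higher in thymus than in fresh MLN when 3 counts over the group are taken as the floor (edgeR adjusted p = 0.000545). With DESeq2 its call was lost (adjusted p = 0.291), and without thymus replicate 1 both segments fell under the filter and were not tested. These 2 segments are neighbours in the alpha array, at places 80 and 81 of the ordered Tra and Trd genes of the annotation, and their coding sequences are 50.95% identical, so they are no copies of each other. Trav14n-3 is 97.23% identical to Trav14-3, a segment not analysed here. Trav18 had 6 counts in each thymus library and 0 elsewhere. Trav16, with 0 and 5 reads in thymus, 8 and 0 in fresh MLN, then 2 and 0 after culture, and Trav15-2-dv6-2, with at most 4 counts in any library, showed no separation of the groups.

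The delta segments split. Trdv4, the delta segment best known from the fetal waves of gamma-delta T cells, had 1198 and 936 reads in thymus, 1398 and 1252 in fresh MLN, then 245 and 243 after culture. At 29.5 and 24.9 CPM in thymus against 35.9 and 33.2 CPM in fresh MLN it was lower in thymus by 0.35 ± 0.10 SE on the log2 scale (log2 fold change -0.35, edgeR adjusted p = 0.0108), a small difference that lost its call without thymus replicate 2 (log2 fold change -0.22, adjusted p = 0.120) or without fresh MLN replicate 1 (-0.29, adjusted p = 0.0767). Trdv5, which lies downstream of the delta constant gene in the inverted direction, went the other way, with 177 and 169 reads in thymus, 65 and 63 in fresh MLN, then 3 and 17 after culture. Its level was 2.65-fold higher in thymus (log2 fold change 1.40 ± 0.28 SE, edgeR adjusted p = 0.00124). In the annotation 47.26% of the exon bases of Trdv5 lie opposite Trdc, the delta constant gene, which the tables do not list, and the strand setting of the counting is not given, so reads of Trdc cannot be told apart from reads of Trdv5.

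Trdv2-2 had 94 and 141 reads in thymus and 108 and 139 in fresh MLN, and the groups overlapped (log2 fold change -0.10 ± 0.27 SE, edgeR adjusted p = 0.804). Trdv2-1 had 17 and 13 reads in thymus and 8 and 7 in fresh MLN, which did not overlap but did not pass the test (log2 fold change 0.96 ± 0.52 SE, edgeR adjusted p = 0.151). Both lie partly opposite an antisense gene, over 26.45% and 55.17% of their exon bases.

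The 6 tested gamma segments all had a lower mean level in thymus than in fresh MLN, and 3 of them passed the test. Tcrg-V1, the segment of the cassette with Tcrg-C4, had 602 and 414 reads in thymus, 790 and 742 in fresh MLN, then 3 and 9 after culture. It was lower in thymus than in fresh MLN (log2 fold change -0.63 ± 0.15 SE, edgeR adjusted p = 0.00334). Tcrg-V4, found widely on adult gamma-delta T cells, had 172 and 134 reads in thymus, 362 and 373 in fresh MLN, then 2 and 11 after culture. It showed the largest gamma difference between the organs (log2 fold change -1.30 ± 0.20 SE, edgeR adjusted p = 0.000177), and the groups did not overlap. An antisense gene lies opposite 18.54% of its exon bases.

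Tcrg-V6 and Tcrg-V5, the segments rearranged in the fetal thymus by the cells that settle in mucosal tissues and in the epidermis, were low but present in both organs. Tcrg-V6 had 56 and 38 reads in thymus against 76 and 90 in fresh MLN (log2 fold change -0.85 ± 0.29 SE, edgeR adjusted p = 0.0301). This call was lost without thymus replicate 2 (adjusted p = 0.180), without fresh MLN replicate 2 (adjusted p = 0.165) and with DESeq2 (adjusted p = 0.140). Tcrg-V5 had 63 and 43 reads in thymus and 60 and 63 in fresh MLN (log2 fold change -0.25 ± 0.30 SE, edgeR adjusted p = 0.530). Tcrg-V7, typical of intestinal intraepithelial cells, had 38 and 35 reads in thymus and 39 and 42 in fresh MLN (log2 fold change -0.18 ± 0.35 SE, edgeR adjusted p = 0.713). Trgv2 had 143 and 155 reads in thymus and 177 and 194 in fresh MLN (log2 fold change -0.34 ± 0.21 SE, edgeR adjusted p = 0.209). Tcrg-V3 had 5 and 1 reads in thymus and 3 and 0 in fresh MLN and was not tested.

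**Figure D3:**
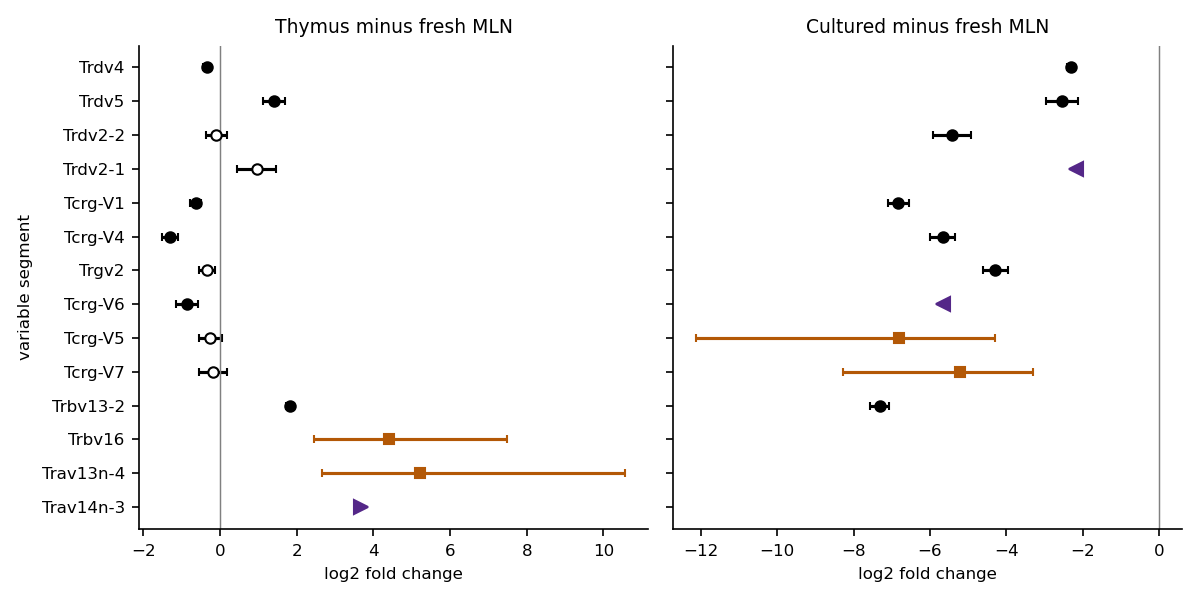
Log2 fold change of the 14 tested members, thymus minus fresh MLN on the left and cultured minus fresh MLN on the right. Circles are edgeR values with SE (filled where called), squares are count ratios with exact 95% counting intervals where a group had 1 to 3 counts, triangles are bounds against a group at 0 (the change is at least as large as the triangle's position), and members with 3 counts or fewer in both groups have no symbol. Trbv13-2 stands at 1.82 and -7.31, and Trdv4 at -0.35 and -2.30.

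Within the gamma locus Tcrg-V1 held the largest share in both organs. It took 55.8% and 50.5% of the reads of the gamma members in thymus and 52.4% and 49.3% in fresh MLN, and Tcrg-V4 took 15.9% and 16.3% in thymus and 24.02% and 24.8% in fresh MLN. Of the reads of the delta members Trdv4 held 80.6% and 74.3% in thymus and 88.5% and 85.7% in fresh MLN, and Trdv5 11.9% and 13.4% against 4.12% and 4.31%.

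**Figure D4:**
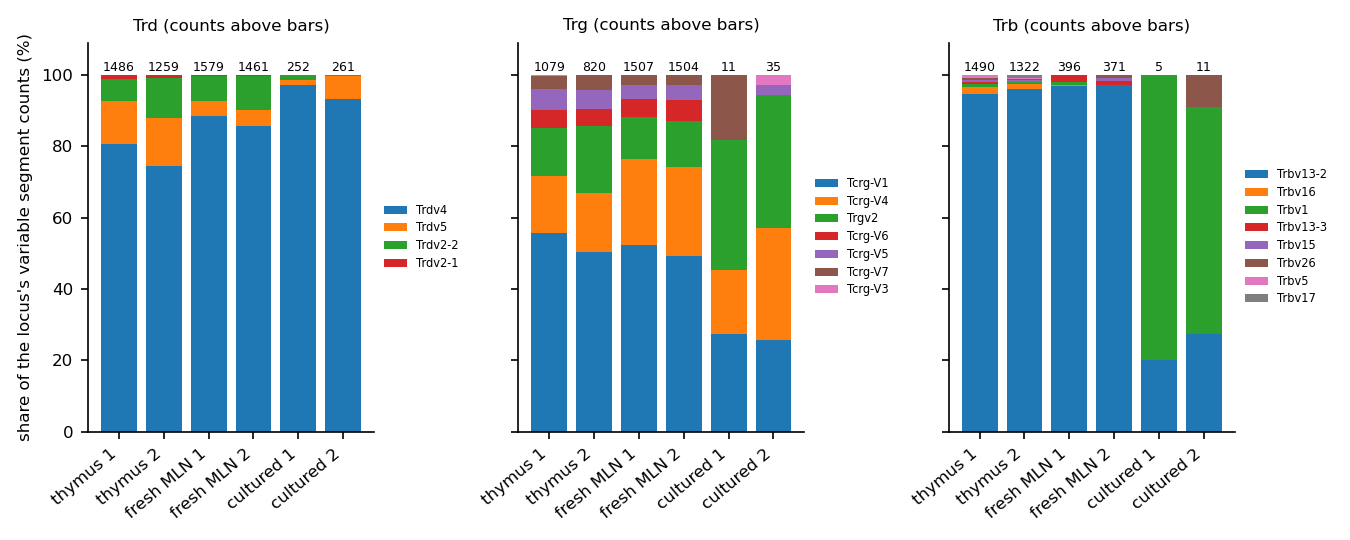
Share of each locus's variable segment counts held by each member, in percent, for the delta, gamma and beta loci in the 6 libraries, with the locus's total count above each bar. Trbv13-2 holds 94.7% to 97.0% of the beta counts in fresh cells of both organs, and Trdv4 rises to 97.2% and 93.1% of the delta counts in cultured cells, where the beta and gamma bars rest on 5 to 35 counts.

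Cultured MLN cells were set against fresh ones to follow this RNA over the week with the 3 cytokines. Of the 14 tested members 11 were called, all lower in culture, beside 77.6% of all genes called, 38.1% called lower and 39.4% called higher. Since 13 of the 14 entered the test through fresh libraries alone, nothing is read from that count, and the values of single members are described. The 3 members not called were Trbv16, Trav13n-4 and Trav14n-3, each with at most 2 counts over the fresh MLN group. In bulk libraries fewer cells with a transcript and less of it per cell cannot be told apart.

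The size of the drop ranged widely. Trdv4 went from 35.9 and 33.2 CPM to 7.39 and 6.70 CPM, a 4.92-fold drop (log2 fold change -2.30 ± 0.11 SE, edgeR adjusted p = 4.702e-10). Trdv5 was 5.80-fold lower (log2 fold change -2.53 ± 0.42 SE, edgeR adjusted p = 9.849e-05), on 3 and 17 counts that differ between the cultured libraries: the log2 fold change was -1.82 without cultured replicate 1 and -4.15 without cultured replicate 2. Trdv2-2 was 44.8-fold lower with 4 and 1 counts left (log2 fold change -5.42, and -6.71 and -4.70 without cultured replicates 1 and 2), and Trdv2-1, at 0 in both cultured libraries, at least 4.53-fold lower. Trdv4 was thus the only member with more than 17 counts in a cultured library.

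Trbv13-2 was 168-fold lower in culture than in fresh MLN (log2 fold change -7.31 ± 0.26 SE, edgeR adjusted p = 1.684e-11) and Tcrg-V1 116-fold lower (-6.83 ± 0.27 SE, edgeR adjusted p = 6.979e-11). Without cultured replicate 2, which held most of their remaining counts, these log2 fold changes were -8.17 and -7.73. Tcrg-V4 was 51.3-fold lower (log2 fold change -5.66, and -4.97 and -7.23 without cultured replicates 1 and 2). Trgv2, with 4 and 13 counts left, was 19.8-fold lower (log2 fold change -4.29, and -3.74 and -5.28 without cultured replicates 1 and 2). Tcrg-V6 had 0 counts in both cultured libraries, which is at least 50.2-fold lower. Tcrg-V5 with 1 count over both libraries gave a ratio of 111.5 (exact 95% counting interval 19.6 to 4440), and Tcrg-V7 with 2 counts a ratio of 36.7 (9.84 to 308). Whether the folds of different segments differ from each other was not tested, and their intervals for the low members are wide.

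Among members too low for the test, Trbv1 had more counts in cultured than in fresh MLN cells, 11 against 3 over the group, a ratio of 4.05 whose exact 95% counting interval runs from 1.07 to 22.6. It held 4 of the 5 and 7 of the 11 counts of beta members left in the cultured libraries. Its 3 fresh MLN counts all came from replicate 1, and it was not tested in the main fit. Without that library it entered the test with a log2 fold change of 5.58, against 0 counts in fresh MLN replicate 2. Trbv13-3 had 12 counts over fresh MLN and 0 in culture.

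Cultured cells set against thymus, which does not hold the organ fixed, had the 14 tested members lower, beside 72.7% of all genes called, 37.8% called lower and 34.8% called higher. Again 13 of them had entered the test through fresh libraries alone, so the count is no result about the members. Trdv4 was 3.88-fold lower (log2 fold change -1.95 ± 0.11 SE, edgeR adjusted p = 3.52e-09) and Trbv13-2 595-fold lower (log2 fold change -9.13 ± 0.22 SE, edgeR adjusted p = 6.546e-13, and -9.99 without cultured replicate 2). Trav13n-4, Trav14n-3 and Trbv16 were at least 11.3-fold, 11.5-fold and 12.7-fold lower, all at 0 in culture. The median log2 fold change of all genes was 0 between the organs, -0.01 between cultured and fresh MLN cells and -0.06 between cultured and thymus cells.

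The constant and joining genes of the same loci give the scale of these levels. Of the 7 constant genes tested, 5 were higher in thymus than in fresh MLN (Trbc1, Trbc2, Tcrg-C1, Tcrg-C2 and Tcrg-C3), while Trac and Tcrg-C4 did not pass. Over all genes 25.3% were called higher and 22.0% lower. Tcrg-C3 entered the test through thymus alone. In culture 6 of them were lower than in fresh MLN, beside 38.1% of all genes called lower. Trac alone was called higher, at 0.362 and 0.414 CPM against 0.206 and 0.106 CPM (log2 fold change 1.29 ± 0.56 SE, edgeR adjusted p = 0.0490). It entered the test through its cultured counts alone, so a higher level there was built into its being tested. The counts of the beta members were 5.45 and 4.91 per 100 counts of Trbc1 and Trbc2 in thymus and 2.14 and 2.04 in fresh MLN, so the variable segments stood higher against their constant genes in thymus. In cultured cells they were 1.13 and 2.40 per 100, on 5 and 11 variable counts. The joining segments of the first beta cluster, Trbj1, summed to 17033 and 13487 reads in thymus and 11736 and 10532 in fresh MLN, well over the 1490, 1322, 396 and 371 counts of the Trbv members. Of the 7 Trbj1 segments 6 were higher in thymus, of the 7 Trbj2 segments 1, and all 14 were lower in culture. Several of the 14 entered the test through fresh libraries alone, such as Trbj2-3 with 3 and 3 counts in culture and Trbj2-4 with 2 and 3. A lower level in culture was built into their being tested, so the count of 14 is no result about culture.

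Between the organs the gamma cassettes went the opposite way from beta. The 4 segments that precede Tcrg-C1 (Tcrg-V7, Tcrg-V4, Tcrg-V6 and Tcrg-V5) had 2.26 and 1.74 counts per 100 counts of Tcrg-C1 in thymus and 4.92 and 8.27 in fresh MLN, with 9.76 and 12.5 in culture. Trgv2 had 3.83 and 5.11 per 100 counts of Tcrg-C2 in thymus and 13.98 and 20.1 in fresh MLN, with 21.1 and 35.1 in culture. Tcrg-V1 had 6.22 and 4.93 per 100 counts of Tcrg-C4 in thymus and 7.25 and 8.54 in fresh MLN. In culture it had 1.64 and 3.21 per 100, on 3 and 9 variable counts. The other cultured ratios rest on 4 and 12 variable counts beside 41 and 96 of Tcrg-C1, and 4 and 13 beside 19 and 37 of Tcrg-C2. The split of reads between Tcrg-V1 and Trgv2 is also uncertain, so no direction is read from the cultured ratios. Tcrg-C2 was higher in thymus (log2 fold change 1.57 ± 0.12 SE, edgeR adjusted p = 2.263e-07) while its segment Trgv2 did not pass the test, and Tcrg-C4 did not pass (log2 fold change -0.15 ± 0.11 SE, adjusted p = 0.282) while its segment Tcrg-V1 was lower. The ratios of V to C were not tested. Tcrg-C3, next to the rarely counted Tcrg-V3, had 107 and 83 reads in thymus and 8 and 2 in fresh MLN.

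**Figure D5:**
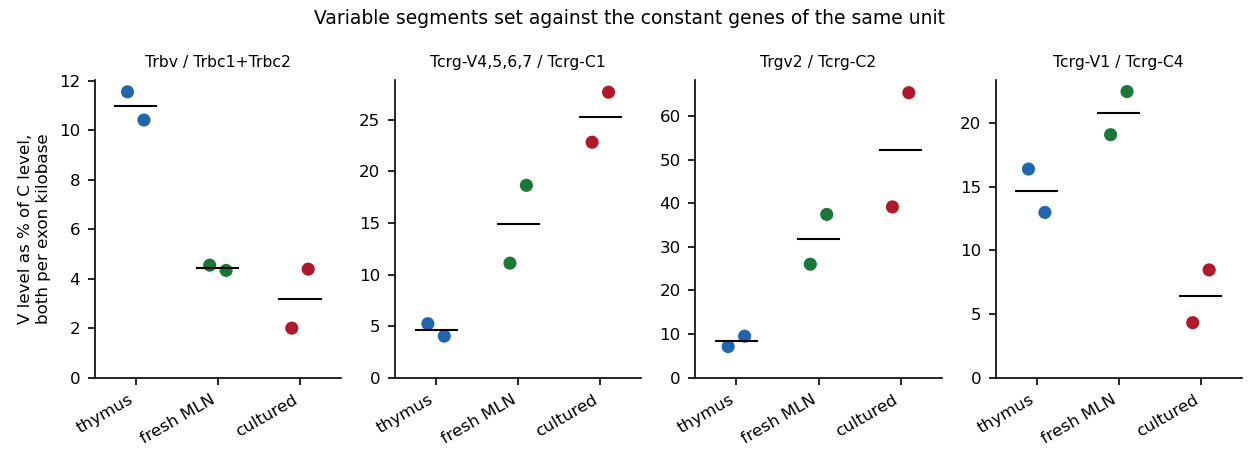
Level of the variable segments as a percentage of the level of the constant genes of the same unit, both per kilobase of exon, with a point for each library and a bar for the group mean. Beta runs from 11.6% and 10.4% in thymus to 4.54% and 4.33% in fresh MLN, whereas the Tcrg-C1 unit runs from 5.23% and 4.02% to 11.1% and 18.6%; cultured points rest on 3 to 13 variable counts.

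Delta joining segments could be followed through Trdj1 and Trdj2. Trdj1 was higher in thymus (log2 fold change 0.63 ± 0.20 SE, edgeR adjusted p = 0.0219), whereas Trdv4 was lower there. In culture the log2 fold change against fresh MLN was -2.51 ± 0.26 SE for Trdj1 and -3.37 ± 0.37 SE for Trdj2, beside -2.30 for Trdv4. The 59 Traj segments of the tables together had at most 6 counts in a library, and none was tested.

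Of the 12 genes of recombination listed, 7 were higher and 1 lower in thymus, beside 25.3% of all genes called higher and 22.0% called lower. Rag1 had 31 and 11 reads in thymus, 0 and 1 in fresh MLN and 0 in culture, and Rag2 26 and 21, 0 and 1, and 0. Dntt, which adds bases at the joins, had 43 and 24 reads in thymus and 2 and 4 in fresh MLN. All 3 were called higher in thymus (edgeR adjusted p = 0.00142, 0.00031 and 0.00069), each at about 1 CPM or below. They passed the filter on low counts through thymus alone, so a lower level in the other groups was built into their being tested. They had more reads in thymus library 1 than in library 2, as did Trav13n-4, Trav14n-3 and Trbv16. So did the leading members Trdv4, Trbv13-2 and Tcrg-V1, and library 1 was the deeper one (37799166 against 35280692 counts).

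Markers of other cells that carry rearranged receptors stand beside 25.3% of all genes called higher and 22.0% called lower in thymus. Of the 11 alpha-beta T cell markers 5 were higher and 2 lower in thymus, their sum was 786 and 829 CPM in thymus, 612 and 618 CPM in fresh MLN and 68.8 and 76.5 CPM in culture, and Trac was near 0 throughout. Most of that sum is Trbc1 and Trbc2, and the 8 genes of the list that are not constant genes summed to 112 and 113 CPM in thymus, 137 and 135 CPM in fresh MLN, then 55.1 and 63.4 CPM after culture, with 3 higher and 2 lower in thymus. Cd4 had 208 and 244 reads in thymus and 39 and 35 in fresh MLN, and Cd5 and Cd3d were also higher in thymus. Cd6 (log2 fold change -0.95) and Cd3e (-0.38) were lower there, and Cd3g, Cd8a and Cd8b1 were not called. Of the 7 gamma-delta T cell markers that could be tested, 5 were higher and 0 lower in thymus, with sums of 773 and 773 CPM against 609 and 458 CPM and 43.2 and 46.5 CPM in culture. That list holds Tcrg-C1, Tcrg-C2 and Tcrg-C4 themselves, and its other 4 genes summed to 83.8 and 86.8 CPM in thymus, 15.9 and 19.0 CPM in fresh MLN, then 35.8 and 35.1 CPM after culture. Cd163l1, a scavenger receptor of gamma-delta T cells, had 2853 and 2702 reads in thymus and 189 and 158 in fresh MLN, and Blk 111 and 82 against 0 and 2. Blk entered the test through thymus alone. Of these 4 genes 3 were higher and 0 lower in thymus, and in culture 2 were higher and 1 lower than in fresh MLN. Etv5 was not called between the organs. It gave most of their sum in culture, at 34.0 and 32.5 CPM, against 10.9 and 14.6 CPM in fresh MLN. Cd163l1 was at 0.604 and 1.21 CPM in culture against 4.86 and 4.20 CPM in fresh MLN. Of the 6 early thymocyte markers tested 4 were higher and 0 lower in thymus, with sums of 14.1 and 11.2 CPM, 8.28 and 8.60 CPM, and 15.9 and 15.8 CPM in culture, and Ptcra was at 0 in thymus. Of these 4, Rag1, Rag2 and Dntt had entered the test through thymus alone. The sum in culture was nearly all Notch3, at 15.6 and 15.7 CPM. Of the 5 NKT and MAIT cell markers 2 were higher and 2 lower, with sums of 151 and 156 CPM, 117 and 148 CPM, and 43.7 and 48.1 CPM, and Zbtb16 and Klrb1c were at 0 in culture. Of the 4 CD3 chain genes tested, which serve as receptor partners, 2 were higher and 1 lower in thymus and 2 lower in culture.

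Of the markers for cells without a T cell receptor, 1 of 3 B cell genes tested was higher in thymus, 2 of 5 myeloid genes and 5 of 5 NK cell genes were lower, and 0 of 1 gene of thymic epithelium was called. Their sums were 11.9 to 23.1 CPM (B cells), 5.67 to 86.3 CPM (myeloid cells), 8.53 to 35.1 CPM (NK cells) and 1.54 to 2.95 CPM (thymic epithelium) in the fresh libraries of both organs. In culture the B cell sum was 49.2 and 51.7 CPM (2 of 3 genes higher than in fresh MLN, 0 lower) and the myeloid sum 8.66 and 11.7 CPM (2 of 5 higher, 3 lower). The NK cell sum there was 52.8 and 61.5 CPM (1 of 5 higher, 4 lower) and that of thymic epithelium 4.80 and 6.87 CPM (1 of 1 higher). These counts of genes in culture were set in part by the filter. Ebf1, a B cell gene with 0 and 0 reads in fresh MLN and 54 and 27 in culture, entered the test through culture alone. Cybb (2 and 3 reads in culture), Eomes (1 and 1) and Klra8 (0 and 0) entered it through fresh libraries alone. Of the 10 ILC2 markers, thymus had 2 higher and 6 lower relative to fresh MLN; 6 were higher and 4 lower in culture than in fresh MLN. Over all genes, 25.3% were called higher and 22.0% lower in thymus than in fresh MLN. In culture 39.4% were called higher and 38.1% lower than in fresh MLN. The part of other cells in the variable segment counts was not tested.

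The genes most like the leading member of each locus over the 6 libraries were taken from all genes tested by Pearson r of log2 CPM, as a description over 6 libraries in 3 groups. They were Ttc28, Pik3r1 and Dnmbp for Trdv4 (r = 0.9997, 0.9996 and 0.9995) and Unc13d, Ilvbl and 2610307P16Rik for Trbv13-2 (0.9997, 0.9996 and 0.9996). For Tcrg-V1 they were Zfp84, Rbm3 and Sap18 (0.9998, 0.9991 and 0.9988). For Trav13n-4 they were Elf4, Lingo4 and Trbv16 (0.9969, 0.9934 and 0.9924). The 6 libraries fall into 3 groups, and r does not reflect the size of the step between them: Rbm3 went from 132 CPM in fresh MLN to 105 CPM in culture, whereas Tcrg-V1 went from 20.3 and 19.7 CPM to 0.0905 and 0.248 CPM.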

How the data were processed

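RNA of 6 libraries was sequenced from a stranded mRNA kit, with about 300000 cells per sample per the labels. The deposited values are raw counts of reads per Ensembl gene made by the authors, without normalization, and 0 rows named anything other than a gene. HTSeq 0.5.3p9 and the builds mm9 and NCBIM37 appear in the submitters' processing notes. The strand setting, aligner and annotation release were not given in the sources used here. Symbols, order, exon lengths and sequences were matched by identifier to GENCODE M21, a later build, so no coordinates are printed; 32919 of the 37991 identifiers had a symbol and 5072 did not, and segments among the latter could not be members.

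The whole table was fitted in R 4.3.3 with edgeR 4.0.16 (filterByExpr, TMM factors, 1 mean per group over all 6 libraries, quasi-likelihood F test, two-sided, Benjamini-Hochberg over 16231 genes), and the script was tested on simulated data. The SE of a log2 fold change is its size divided by the square root of F. Errors of levels are SD of 2 libraries. Against a group with 0 counts a fold is a bound with 3 counts over the group, and with 1 to 3 counts a ratio with an exact 95% interval (scipy 1.17.1). With 2 libraries against 2 no permutation test can reach 0.05, so none was run. Alternatives were RLE and upper-quartile factors, unscaled library totals (library totals alone), no filter on low counts, at least 1 CPM in 2 libraries, DESeq2 1.42.0, a replicate block, leaving out each library, members with 30 or more counts, and functional segments only.

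Members, gene lists (constant, joining, recombination, CD3 chains, markers of 9 cell types) and the naming rule were chosen with earlier results of these data known. The rule names the 6 members with most counts per locus, the called members with the largest changes, every delta and gamma member, members at the count limit, genes of the lists where a result turns on them, and the 3 genes most like the leading member of each locus.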

Additional observations from a re-analysis of the deposited data

How the results depend on the processing

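RLE factors, upper-quartile factors and library totals alone gave the same 9, 11 and 14 called members in the comparisons of thymus with fresh MLN, cultured with fresh MLN and cultured with thymus. Without a filter on low counts 13, 12 and 19 of 24 were called, with at least 1 CPM in 2 libraries 6 (2 higher and 4 lower, in place of 5 and 4), 10 and 10 of 10, and with DESeq2 7, 12 and 14. Leaving out a library gave 7 to 10, 11 to 12 and 12 to 15. Differences between replicates 1 and 2 were little shared between the groups (correlations 0.115, 0.0211 and 0.0339). This cannot show if libraries of the same replicate number stem from the same animals. With the replicate as a block 9, 11 and 14 members were called.

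Of 494 alternative values for single members 485 kept their direction and side of the threshold, 7 lost their call and 2 changed sign. The sign changes were both of the uncalled Trdv2-2 between thymus and fresh MLN, 0.22 without thymus replicate 1 and 0.12 without fresh MLN replicate 2, in a range from -0.47 to 0.22 over the libraries left out. Besides the lost calls of Trdv4 and Tcrg-V6 given above, Trav14n-3 lost its calls with DESeq2 (adjusted p = 0.291 against fresh MLN and 0.259 against cultured cells). Trav13n-4 and Trav14n-3 fell under the filter without thymus replicate 1. Trbv1 entered the test without fresh MLN replicate 1 and was higher in culture than in fresh MLN, opposite to the members called in the main fit.

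On library totals alone the Trb sum was 38.5 CPM in thymus and 10.5 CPM in fresh MLN, the Trd sum 37.5, 41.5 and 6.62 CPM in thymus, fresh MLN and culture, and the Trg sum 41.1 CPM in fresh MLN. With every Trav segment of the tables the cultured Tra sum was 0.188 CPM in place of 0.0853. Depth limits the Trav, Trbv1 and cultured values most, where 3 counts set the floor.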
